A study of Mus musculus with 10 samples.

Results

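F1 males whose parents had exercised were compared with F1 males whose parents had been sedentary, by messenger RNA arrays of the gastrocnemius, the large muscle of the calf. The comparison used 4 of the series' 10 arrays, chosen by their titles as F1 EX (2 arrays) and F1 SED (2 arrays). All mice were male C57BL/6, and EX and SED give the ancestry of the F1 mice, not their own activity. Their F0 parents had lived with voluntary exercise or without it, and each had been mated with a partner of the same exposure. The F1 mice themselves were all sedentary, were killed at 8 weeks, and carried no engineered allele or drug that the labels name. Each array held muscle RNA pooled from 5 animals, so the spread between individual mice was not measured. The 4 F2 pools (2 F2 EX, 2 F2 SED), also sedentary and 8 weeks old, descended from matings of F1 littermates and entered the same model. Both parents shared an exposure, so that transmission through the mother and through the father cannot be told apart. Values are log2 probe set signals as the authors deposited them, a difference of 1 is a doubling of signal, and n is 2 pools in each group throughout.

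The gastrocnemius of the mouse is made mostly of fast-twitch fibres, which burn glycogen and glucose, with a smaller share of slow, oxidative fibres. Endurance exercise is known to raise mitochondrial enzymes, glucose transport and capillary supply in the muscle that works. Between the fibres lie fat cells, macrophages, vessels, nerve endings and connective tissue, whose genes also enter RNA of powdered muscle. Interferon, a signal released during infection and immune activation, switches on large families of GTPases and antigen presentation genes in muscle as in other tissues.

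The tissue label was borne out by muscle genes in all 4 F1 pools. Skeletal alpha-actin (Acta1) had signals of 13.32 and 13.50 in the F1 EX pools and 13.53 and 13.51 in the F1 SED pools, near the top of the table's range, which ended at 14.227. Muscle creatine kinase (Ckm) had 12.95 and 13.27 against 13.27 and 13.22. The mean signal of 17 fast fibre genes was 12.05 and 12.17 in F1 EX, and 12.20 and 12.15 in F1 SED. Markers of other cells were also present: 17 of 20 adipocyte, 27 of 34 myeloid and 23 of 23 endothelial markers passed the filter on low signal, but only 1 of 16 lymphocyte and 2 of 12 erythrocyte markers did. The filter kept 11963 of 19938 named genes, those with a mean of at least 3.23.

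No gene differed between F1 EX and F1 SED past the threshold. limma called 0 of 11963 genes (0.0%) at a Benjamini-Hochberg adjusted p of 0.05, and the smallest adjusted p was 0.804. At an unadjusted p under 0.05 there were 584 genes (4.88%), 237 higher and 347 lower in F1 EX. The count past the threshold was also 0 with limma's trend and robust settings (591 unadjusted) and with array weights (285). The 95% confidence intervals had a median width of 0.33 on each side, and for 97.9% of genes the whole interval lay within 1 of 0. Both F1 EX pools lay above both F1 SED pools in 1559 genes (13.0%), and below both in 1980 (16.6%), which is called separated here. Estimates lay above 0 in 48.9% of genes and below 0 in 51.1%. Separation with a mean difference of at least 0.5 was seen for 54 genes above (0.451%) and 100 below (0.836%). An exact permutation test of 2 pools against 2 cannot go below p = 0.333 for any gene, so that only the model over all genes could pass. The labels number the pools without saying that they hold different animals, so the p-values measure the spread between these pools only, which may be technical.

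The 4 pools were not equally alike, and 2 of them bear on what follows. Across genes, the Pearson correlation of F1 EX pool 1 with the other 7 descendant arrays had a median of 0.979, while that median lay between 0.991 and 0.993 for each of those 7. It lay at least 0.5 above the median of the other 7 descendant pools in 680 genes (5.68%) and at least 0.5 below it in 785 (6.56%). F1 EX pool 2 did so in 37 (0.309%) and 69 genes (0.577%), F1 SED pool 1 in 29 (0.242%) and 48 (0.401%), and F1 SED pool 2 in 117 (0.978%) and 49 (0.41%). The deviations of F1 SED pool 2 were few but included some of the largest. It lay at least 1 above the other pools' median in 22 genes (0.184%), and at least 1 below it in 0 (0.0%). Estimates below 0 numbered 6111 of 11963 genes with all 4 pools, 6648 without F1 SED pool 2, 6953 without F1 EX pool 1 and 7633 without both. Gene lists are therefore given with and without these pools. Without both, 1 pool is compared with 1, and the values have no replicate.

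**Figure D1:**
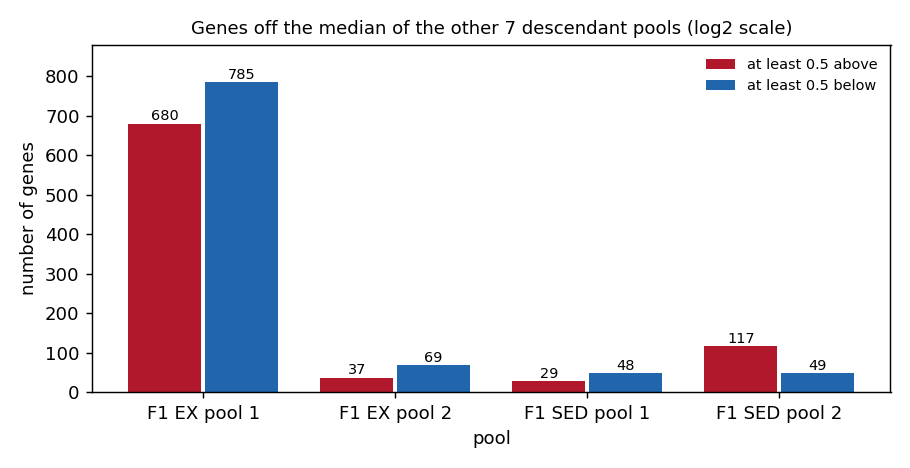
Number of genes (y axis, of 11963) lying at least 0.5 on the log2 scale above (red) or below (blue) the median of the other 7 descendant pools, for each F1 pool (x axis). F1 EX pool 1 has 680 and 785 such genes, while the other F1 pools have between 29 and 117.

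The largest signals that set F1 pools apart belonged to genes of the interferon response, and they came from 1 sedentary-ancestry pool. Iigp1, an interferon-inducible GTPase that attacks the vacuoles of intracellular parasites, had signals of 4.62 and 4.28 in the F1 EX pools, 4.06 in F1 SED pool 1 and 9.25 in F1 SED pool 2. The 4 F2 pools had 3.98 to 4.45. Gm4841, a gene of the same GTPase family, had 5.90 and 6.03 in F1 EX, 5.56 in F1 SED pool 1 and 10.00 in F1 SED pool 2. For both genes 1 F1 SED pool lay below the F1 EX pools and the other far above them, so that the groups overlapped. Gm12185, also a GTPase of this class, had 3.77 and 2.81 in F1 EX, 2.69 in F1 SED pool 1 and 7.48 in F1 SED pool 2. Irgm1, an immunity-related GTPase that regulates the others and autophagy, had 5.38 and 4.90 against 5.10 and 7.84. Gm12250, known as Irgb10, had 3.24 and 3.30 against 3.40 and 6.31.

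Among the other genes high in the same pool were the guanylate-binding protein genes Gbp3, Gbp4, Gbp5 and Gbp7, the chemokine gene Cxcl9, Cd274, Tap1 and Irf1. Gbp7 had 6.93 and 7.04 in F1 EX, 7.03 in F1 SED pool 1 and 8.64 in F1 SED pool 2. Gbp4 had 6.01 and 5.22 against 5.23 and 6.88, Gbp3 had 4.22 and 4.19 against 3.81 and 5.47, and Gbp5 had 3.31 and 3.27 against 3.30 and 4.45. Cxcl9, which draws T cells into tissue that sees interferon gamma, had 3.76 and 3.51 against 3.79 and 5.72. Cd274, which encodes the T cell inhibitor PD-L1, had 3.97 and 3.81 against 4.32 and 6.41. Tap1, which carries peptides to MHC class I molecules, had 5.00 and 4.77 against 4.59 and 5.98, and the interferon regulatory factor Irf1 had 5.15 and 4.73 against 4.81 and 6.03. In each of these 8 genes F1 SED pool 2 was the highest F1 pool, and F1 SED pool 1 lay within 0.5 of an F1 EX pool.

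MHC class II genes, which macrophages and dendritic cells use to present peptides, were also high in F1 SED pool 2, but not there alone. H2-Aa had 6.70 and 6.58 in F1 EX, 6.73 in F1 SED pool 1 and 7.86 in F1 SED pool 2, and F2 SED pool 2 had 7.62. The invariant chain Cd74 had 5.46 and 5.59 in F1 EX and 6.12 and 6.78 in F1 SED, while F2 SED pool 2 had 6.96. Iigp1 and Irgm1 had 4.05 and 4.73 in that F2 pool, within or below the range of the other F2 pools. Of the 22 genes at least 1 above the median of the other 7 descendant pools, 6 were in the interferon list and 5 in the myeloid list. These lists held 23 and 27 of the 11963 kept genes. Usp17ld, a deubiquitinase gene, is also among the 22, but it varied in every group, from 5.19 in F2 SED pool 2 to 10.35 in F1 SED pool 2, with 7.74 and 10.10 in F1 EX.

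**Figure D2:**
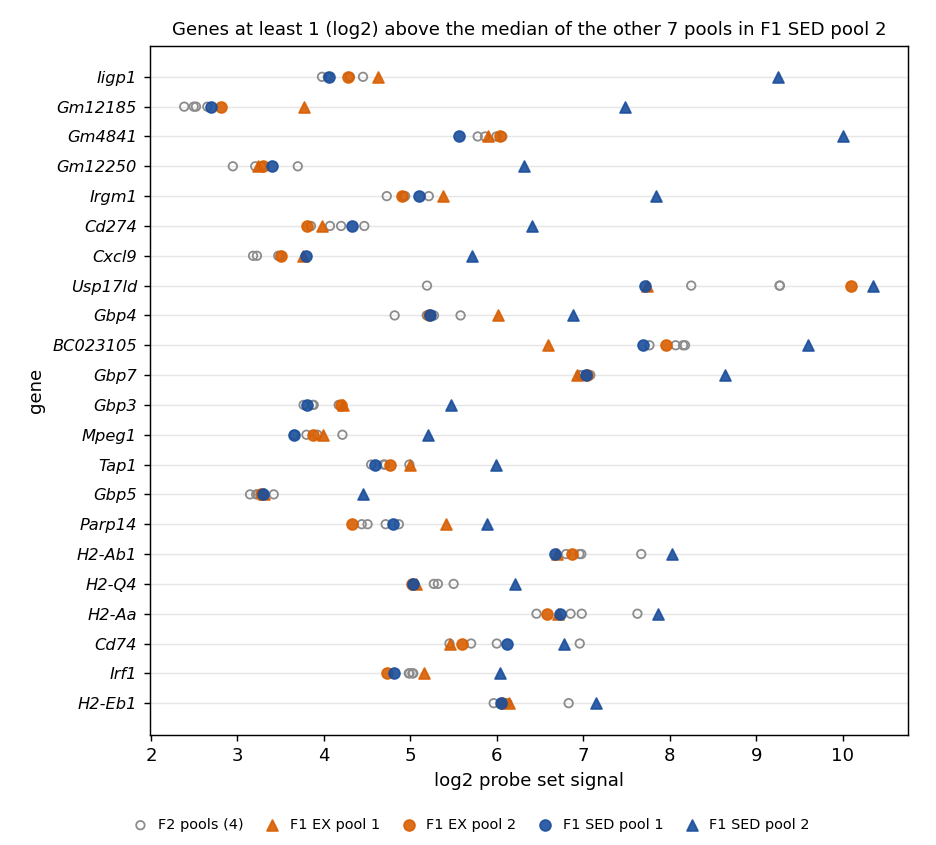
log2 probe set signal (x axis) of the 22 genes (y axis) that lie at least 1 above the median of the other 7 descendant pools in F1 SED pool 2. Orange marks the F1 EX pools, blue the F1 SED pools and grey rings the F2 pools, with 1 point per pool; for Iigp1 the blue triangle lies at 9.25 and the other F1 pools at 4.06 to 4.62.

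The promoters of some of these genes are shown because interferon acts in part through a short DNA element near the start site. Interferon regulatory factors bind the interferon-stimulated response element, whose core was searched as 2 copies of GAAA with 2 bases between them. Both strands of the 250 bases before each RefSeq start site were read (assembly GRCm38.p6), and 15 of the 22 genes matched the promoter table. The GAAA pair was found in 6 of the 15, against 3.46% of 27025 genes in the table. These were Gbp3, Gbp5, Gbp7, Irgm1, Gm12185 and Gm12250. The genes were chosen after their values were seen, so this count is a description and was not tested. A match is a sequence and not a measured binding site. Stretches of 100 bases from 5 genes follow, 5′ to 3′ on the gene's strand, with the matches in capitals on either strand.
Gm12250, chr11:58183729-58183828, plus strand: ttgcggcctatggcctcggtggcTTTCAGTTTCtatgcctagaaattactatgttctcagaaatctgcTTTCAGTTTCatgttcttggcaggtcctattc
Gm12185, chr11:48927203-48927302, minus strand: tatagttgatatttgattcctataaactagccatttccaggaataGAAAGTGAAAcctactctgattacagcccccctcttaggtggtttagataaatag
Irgm1, chr11:48871421-48871520, minus strand: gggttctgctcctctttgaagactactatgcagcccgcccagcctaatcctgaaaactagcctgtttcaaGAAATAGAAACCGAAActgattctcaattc
Gbp7, chr3:142530236-142530335, plus strand: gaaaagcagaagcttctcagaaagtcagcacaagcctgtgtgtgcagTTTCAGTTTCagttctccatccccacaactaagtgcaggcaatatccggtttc
Gbp3, chr3:142559944-142560043, plus strand: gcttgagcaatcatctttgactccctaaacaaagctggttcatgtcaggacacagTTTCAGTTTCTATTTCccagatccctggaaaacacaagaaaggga
Irgm1 and Gbp3 each hold 2 overlapping pairs and Gm12250 holds 2 apart from each other, while the stretches of Gm12185 and Gbp7 hold 1. The signals of these 5 genes in F1 SED pool 2 were 7.84, 5.47, 6.31, 7.48 and 8.64, in that order.

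As a group, the interferon-stimulated genes had lower values in F1 EX, and this rested on F1 SED pool 2. Of 38 listed genes 23 were kept, of which 20 had an estimate below 0 and 3 above, with a median of -0.40 where the median over all genes was 0.00. The median was -0.43 with each array centred on its median and -0.39 with quantile normalization. The mean signal of the 23 genes was 4.78 and 4.70 in the F1 EX pools, 4.76 in F1 SED pool 1 and 5.60 in F1 SED pool 2, and 4.72 to 4.82 in the F2 pools. F1 SED pool 2 was the highest of the 8 descendant pools in 18 of the 23 genes, whereas over all genes it was highest in 881 of 11963. Without F1 SED pool 2 the median was 0.00, and 11 of 23 estimates lay below 0. Without F1 EX pool 1 it was -0.38, and without both it was -0.03, where all genes had -0.06. None of the 23 passed limma's threshold, and 6 had an unadjusted p under 0.05, against 584 of 11963 (4.88%) over all genes. Separated lower were 7 of the 23 (30.4%, against 16.6% of all genes).

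Several interferon genes were separated without an extreme pool. Trim30a, an antiviral and inflammasome-dampening protein, had 4.0 and 4.28 in F1 EX and 4.68 and 4.91 in F1 SED, a difference of -0.65 (SE 0.154, limma adjusted p = 0.804). Usp18, which removes ISG15 from proteins and damps interferon signalling, had 3.18 and 3.37 against 3.75 and 3.86 (difference -0.53, SE 0.134). Its F1 EX values lay near 3.23, the cut on mean signal used as the low-signal filter. Irf7, the regulator of type I interferon genes, had 3.56 and 3.68 against 3.93 and 4.20 (-0.44, SE 0.133). Ifih1, a sensor of double-stranded RNA, had 3.72 and 4.02 against 4.17 and 4.49 (-0.46, SE 0.157). In these 4 genes every F1 EX pool lay below every F1 SED pool, with the lowest value in F1 EX pool 1. Ifitm3, which blocks virus entry, had 6.82 in F1 EX pool 1 and 7.97, 8.03 and 8.31 in the other F1 pools, so that its difference of -0.78 came mainly from 1 pool.

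Without F1 SED pool 1, when F1 SED pool 2 alone stands for its group and is assumed to vary like the other groups, limma called 8 genes, all lower in F1 EX. These were Gm4841 (difference -4.03, Benjamini-Hochberg adjusted p = 3.67e-05), Iigp1 (-4.80, 0.000132), Gm12185 (-4.19, 0.00313), Irgm1 (-2.70, 0.00462), Gm12250 (-3.04, 0.00462), Cd274 (-2.52, 0.00462), Gbp7 (-1.66, 0.00753) and Cxcl9 (-2.08, 0.00817). Without F1 SED pool 2 there were 0 calls by limma, with 368 genes at an unadjusted p under 0.05. Iigp1, whose main difference was -2.20 (SE 1.204, unadjusted p = 0.0987), is thus described by its 4 values and not by its mean.

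Myeloid markers were mostly lower in F1 EX, but their count and their median also rested on F1 SED pool 2. Of 34 listed markers 27 were kept, 22 had an estimate below 0, and 9 were separated lower (33.3%, against 16.6% of all genes) and 0 higher (0.0%, against 13.0%). Their mean signal was 5.21 and 5.20 in F1 EX and 5.27 and 5.69 in F1 SED, with 5.15 to 5.67 in F2. The median difference was -0.25 (-0.28 with centring, -0.22 with quantile normalization). Without F1 SED pool 2 it was 0.00, and 13 of 27 estimates lay below 0. It was -0.08 without F1 SED pool 2 and F1 EX pool 1, with 16 of 27 below 0. All genes had a median of -0.06 in that setting, with 7633 of 11963 below 0. Lysozyme genes kept both F1 SED pools above both F1 EX pools: Lyz1 had 6.04 and 5.90 against 6.52 and 6.60 (difference -0.59, SE 0.175). Lyz2 had 7.28 and 7.47 against 7.72 and 7.84, and the lysosomal protease Ctss 5.52 and 5.97 against 6.05 and 6.55. Fcer1g, the signalling chain of Fc receptors, had 4.94 and 4.82 against 5.17 and 5.36. In bulk RNA, fewer cells of a type and less RNA per cell cannot be told apart. The part of these cells in the interferon values was not tested.

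Most fat cell markers had lower mean signals in F1 EX, and their median stayed below 0 without the pools that stood apart, but none passed the test. The lipid droplet protein Cidec had the smallest unadjusted p of all genes (0.000317). Its signals were 4.69 and 4.68 in F1 EX and 5.56 and 5.63 in F1 SED, a difference of -0.91 (SE 0.166, limma adjusted p = 0.804). The pools of each group nearly coincided and the F2 pools, at 5.15, 5.21, 5.10 and 5.62, mostly lay between them. The hormone adiponectin (Adipoq) had 4.27 and 4.24 in F1 EX and 5.60 and 5.02 in F1 SED, a difference of -1.05 (SE 0.337). Resistin (Retn) had 4.97 and 4.87 against 5.72 and 5.43, and the fatty acid carrier Fabp4 had 6.52 and 7.14 against 7.70 and 7.53. The glyceroneogenic enzyme Pck1 had 5.36 and 5.10 against 6.12 and 5.61. Smaller gaps in the same direction were seen for the glycerol channel Aqp7 (6.75 and 6.92 against 7.23 and 7.18), the triglyceride lipase Pnpla2 (8.62 and 8.63 against 8.89 and 8.85), Lipe and Lpl.

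Of 20 adipocyte markers 17 were kept, 15 had estimates below 0, and 9 were separated lower (52.9%, against 16.6% of all genes) and 0 higher. None passed limma's threshold and 5 of the 17 had an unadjusted p under 0.05, against 584 of 11963 (4.88%) over all genes. The median difference was -0.24 against 0.00 over all genes, -0.27 with centring and -0.20 with quantile normalization. It was -0.22 without F1 EX pool 1, -0.27 without F1 SED pool 2 and -0.28 without both, when 14 of 17 estimates lay below 0. All genes had medians of -0.03, -0.03 and -0.06 in these settings, with 7633 of 11963 below 0 without both. The mean signal of the markers was 6.41 and 6.47 in F1 EX and 6.86 and 6.74 in F1 SED, so that the groups did not overlap. In F2 it was 6.63 and 6.67 in the EX pools and 6.55 and 6.87 in the SED pools, with the EX pools between the SED pools. Cidea, which marks brown and beige fat, and Pparg, the master regulator of fat cells, were not separated in F1.

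Lipogenic enzymes lay in the same direction with fewer separated members. Stearoyl-CoA desaturase Scd1 had 8.69 and 8.31 in F1 EX and 9.76 and 9.34 in F1 SED, a difference of -1.05 (SE 0.376), and F2 SED pool 2 had the highest value, 9.85. Fatty acid synthase (Fasn) had 6.92 and 6.33 against 7.14 and 6.93. The triglyceride-forming enzyme Dgat1 had 4.72 and 5.17 against 5.37 and 5.26, and the elongase Elovl5 had 6.03 and 6.39 against 6.54 and 6.52. Of 19 kept members, 12 lay below 0, 7 were separated lower (36.8%, against 16.6% of all genes) and 1 higher, the NADPH source Me1 (10.13 and 10.00 against 9.96 and 9.95). The list's median was -0.09, and it was -0.11 without F1 SED pool 2, -0.13 without F1 EX pool 1 and -0.16 without both. All genes had a median of -0.06 without both. None passed limma's threshold, and 1 of the 19 had an unadjusted p under 0.05, near the 4.88% of all genes. How far a different share of fat tissue in the samples accounts for these values was not tested.

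**Figure D3:**
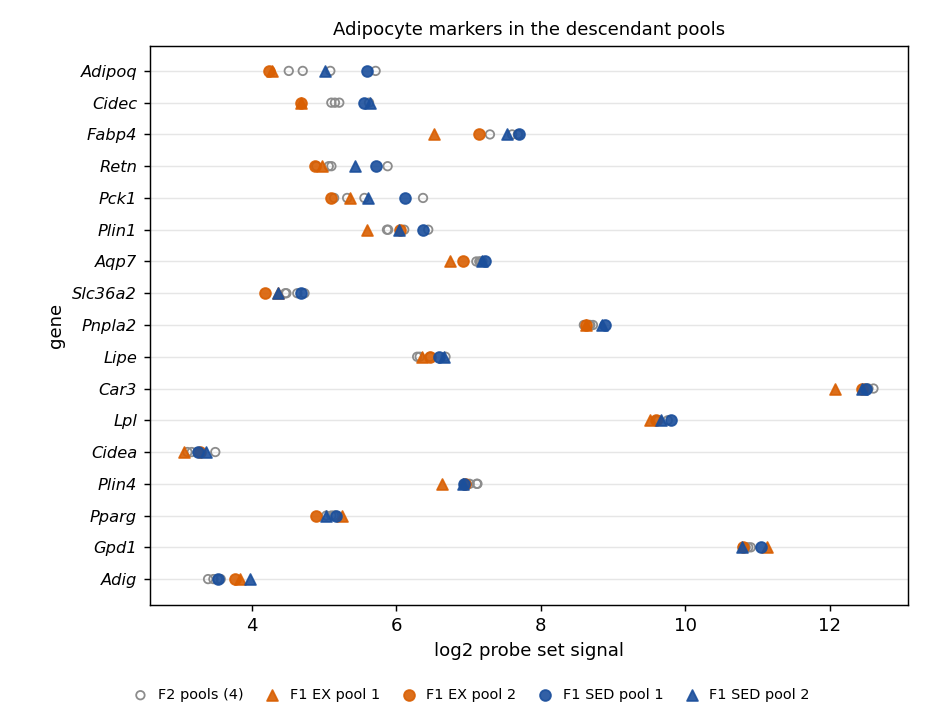
log2 probe set signal (x axis) of the 17 kept adipocyte markers (y axis), ordered by F1 difference, with 1 point per pool. Orange marks F1 EX, blue F1 SED and grey rings the F2 pools; the upper genes, such as Adipoq and Cidec, have both orange points left of both blue points, while Pparg, Gpd1 and Adig at the bottom do not.

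Among separated genes with the smallest p, those higher in F1 EX belonged to no list for the most part. Mrgpre, a G protein-coupled receptor of sensory neurons, had 3.86 and 3.56 in F1 EX and 2.91 and 3.07 in F1 SED, a difference of 0.72 (SE 0.137). Both F1 SED values of Mrgpre lay below 3.23, the cut on mean signal used as the low-signal filter. Wipf1, which binds the actin regulator WASP, had 5.08 and 4.89 against 4.48 and 4.24 (0.63, SE 0.144). Gcsh, a subunit of the mitochondrial glycine cleavage system, had 5.36 and 5.08 against 4.40 and 4.69 (0.68, SE 0.158). Pgm2, which interconverts phosphorylated sugars, had 5.34 and 5.00 against 4.14 and 4.67 (0.77, SE 0.191). Efnb2, the arterial ligand of Eph receptors, had 5.21 and 5.00 against 4.69 and 4.25 (0.64, SE 0.163). The limma adjusted p was 0.804 for each. In all 5 genes F1 EX pool 1 had the highest of the F1 signals. In Mrgpre, Gcsh and Pgm2 all 4 F2 pools lay below both F1 EX pools. The others named by the same rule were Tulp1, Atp10d, Zfp458, Arl14ep, Ppm1h, Ammecr1l, Lce1h, Gpr19, Cdca7 and Mpped1, with differences from 0.49 (Mpped1) to 0.76 (Zfp458).

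Separated genes with the smallest p that were lower in F1 EX, after Cidec, were led by Trim30a and included a clock gene and a mitochondrial protein. Arntl, the BMAL1 factor that drives the circadian clock, had 4.83 and 5.21 in F1 EX and 5.67 and 5.64 in F1 SED, a difference of -0.63 (SE 0.158). Mss51, a mitochondria-associated protein of skeletal muscle that responds to myostatin signalling, had 7.34 and 7.11 against 7.73 and 7.90 (-0.59, SE 0.155), and the 4 F2 pools, at 6.64 to 7.19, mostly lay below all F1 pools. Map2, a microtubule-associated protein, had 3.13 and 3.15 against 3.62 and 3.58 (-0.46, SE 0.116). Pdxp, a vitamin B6 phosphatase, had 2.93 and 3.15 against 3.46 and 3.92. The F1 EX values of Map2 and Pdxp lay below 3.23, the cut on mean signal used as the low-signal filter. The other genes named were Gdap10, Olfr411, Cd2bp2, Vit, Zfp1, Stard13, Fabp4, Usp18 and Mmp28, none past the threshold, with a limma adjusted p of 0.804 each.

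**Figure D4:**
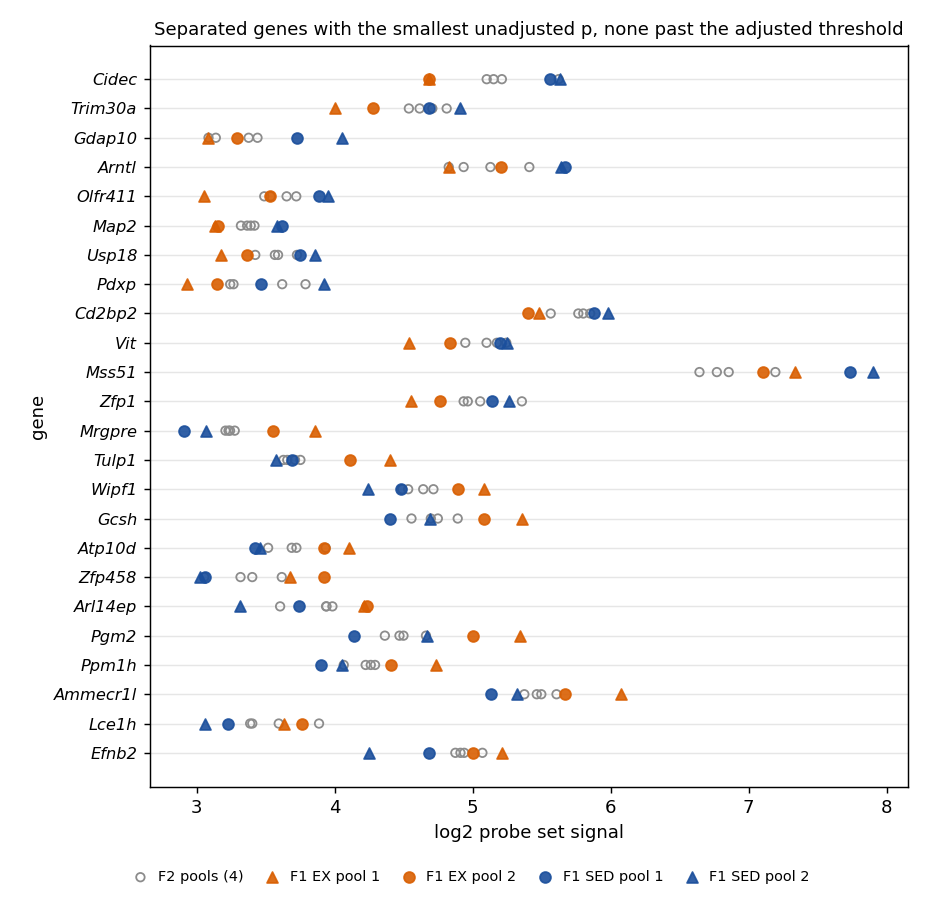
log2 probe set signal (x axis) of 24 genes (y axis) whose F1 pools were separated, the 12 with the smallest unadjusted p in each direction. Orange marks F1 EX, blue F1 SED and grey rings the F2 pools, with 1 point per pool; the limma adjusted p was 0.804 for each gene.

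Well-known exercise-responsive genes of muscle had mostly small differences in F1. Ppargc1a, the coactivator of mitochondrial biogenesis, had 6.94 and 6.83 in F1 EX and 7.0 and 6.61 in F1 SED, a difference of 0.08 (SE 0.173), and the groups overlapped. The insulin-responsive glucose transporter Slc2a4 had 10.24 and 10.12 against 10.17 and 10.02 (0.09, SE 0.125). Hexokinase 2 (Hk2) had 10.45 and 10.19 against 10.22 and 10.21, and Pdk4, which spares glucose by inhibiting pyruvate dehydrogenase, had 10.92 and 10.94 against 10.79 and 11.01. Citrate synthase (Cs) had 10.60 and 10.82 against 10.97 and 10.86, a difference of -0.20 (SE 0.131). The fatty acid transporter Cd36 had 8.73 in F1 EX pool 1 and 9.47, 9.67 and 9.47 in the other F1 pools, and myostatin (Mstn), the brake on muscle growth, had 6.98 against 8.00, 8.01 and 7.88. For Cd36 and Mstn the estimates of -0.47 and -0.45 came from F1 EX pool 1, since its partner lay among the F1 SED values.

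Contractile genes gave no common direction. Slow myosin (Myh7) had 9.42 and 9.24 in F1 EX and 9.16 and 8.95 in F1 SED, a difference of 0.27 (SE 0.149), and slow troponin T (Tnnt1) 8.53 and 8.63 against 8.36 and 8.38. Csrp3, a stretch-responsive protein of the Z-disc, had 6.49 and 6.96 against 7.13 and 7.25, a difference of -0.46 (SE 0.163). Of 17 kept slow fibre genes 9 lay above and 8 below 0, with 3 separated in each direction (17.6% each, against 13.0% of all genes higher and 16.6% lower). Their median was 0.02 with all pools, -0.13 without F1 EX pool 1 and -0.14 without both. Of 17 fast fibre genes 7 lay above and 10 below, with a median of -0.07 that was 0.03 after quantile normalization and 0.02 without F1 EX pool 1. Fast myosins Myh1 and Myh4 had 11.44 and 12.60 in F1 EX pool 1 and 11.66 to 11.76 and 13.13 to 13.18 in the other F1 pools. Myogenic and developmental genes had 7 above and 12 below, with MyoD (Myod1) at 7.30 and 6.42 against 6.74 and 6.61. Without both pools that stood apart 15 of the 19 lay below 0, and 7633 of 11963 over all genes.

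Energy metabolism genes had small differences, and more of them lay below 0 when both pools that stood apart were left out. This was also so over all genes, with 6111 of 11963 below 0 with all 4 pools and 7633 without both. Tricarboxylic acid cycle genes had 5 estimates above and 13 below 0, with 6 separated lower (33.3%, against 16.6% of all genes) and 0 higher. Their median was -0.14, which was -0.06 without F1 EX pool 1 and also with quantile normalization. It was -0.19 without F1 SED pool 2 and -0.11 without both, when all 18 lay below 0. F1 EX pool 1 was the lowest of the 8 descendant pools in 10 of the 18 genes, and in 2966 of 11963 over all genes. An example is Sdhd, an anchor of succinate dehydrogenase, at 9.06 in F1 EX pool 1 against 9.39, 9.73 and 9.41 in the other F1 pools. Oxidative phosphorylation genes had 22 above and 27 below, with a median of -0.01. Of them 4 were separated higher (8.16%, against 13.0% of all genes) and 5 lower (10.2%, against 16.6%). This balance depended on the pools that stood apart: 33 of 49 lay below 0 without F1 SED pool 2, 35 without F1 EX pool 1 and 44 without both, with medians of -0.07, -0.05 and -0.11. Over all genes the median was -0.06 without both. Fatty acid oxidation genes had 13 above and 14 below, with 5 separated lower (18.5%, near the 16.6% of all genes). The trifunctional protein subunit Hadhb was 1 of them (9.40 and 9.71 against 9.96 and 9.78). Without both pools 23 of these 27 lay below 0, with a median of -0.11 in place of -0.01. Glucose uptake and insulin signalling genes had 11 above and 10 below, with 2 separated lower (9.52%, against 16.6% of all genes) and 0 higher. Without both pools 17 of these 21 lay below 0. Heat shock genes had 5 above and 18 below, with 4 separated in each direction (17.4% each, against 13.0% of all genes higher and 16.6% lower). Dnajb1, a cochaperone of HSP70, had 4.38 and 4.53 against 4.09 and 4.0, while Hspa8 had 10.83 and 11.08 against 11.26 and 11.13. Without both pools 16 of the 23 heat shock genes lay below 0. Ribosomal protein genes had 7 above and 14 below, and 16 below without both.

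In the glycogen list the members with the largest differences had opposite signs. Pgm2 is given above, and Ppp1r3c, which targets protein phosphatase 1 to glycogen and favours its synthesis, had 8.06 and 8.38 in F1 EX against 8.80 and 8.55, a difference of -0.46 (SE 0.163). Of 17 kept members 4 were separated higher (23.5%, against 13.0% of all genes) and 2 lower (11.8%, against 16.6%), with a median of 0.05 that was -0.07 without both pools that stood apart. In the clock list Per2, a repressor of BMAL1, had 5.07 and 4.64 against 4.50 and 4.22 (difference 0.50, SE 0.164), opposite to Arntl, and the repressor Cry1 had 5.95 and 5.47 against 5.27 and 5.45. The hour of tissue collection is not given in the sources used here. Across 20 clock genes 12 lay above and 8 below 0. F1 EX pool 1 was the highest of the 8 descendant pools in 11 of the 20, and in 3580 of 11963 over all genes. The count below 0 rose to 11 without F1 EX pool 1 and to 14 without both pools, and the median went from 0.06 to -0.01 and -0.08. Over all genes 6953 and 7633 of 11963 lay below 0 in these 2 settings, with medians of -0.03 and -0.06. Immediate early genes, which respond within minutes to handling or contraction, had 13 above and 6 below, with a median of 0.08. Without F1 EX pool 1, 10 of the 19 lay below 0 and the median was -0.03. Jun had 8.33 and 7.84 against 7.57 and 7.82, and Egr3 4.31 and 4.45 against 4.79 and 4.85.

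Matrix and tendon medians lay on different sides of 0 with all 4 pools, but on the same side without both pools that stood apart. Over all genes the median without both was -0.06, with 7633 of 11963 below 0, so the matrix median was not lower than that of all genes. Of 39 matrix genes 24 lay above 0, with a median of 0.05. Separated higher were 11 (28.2%, against 13.0% of all genes), and separated lower were 4 (10.3%, against 16.6%). Without both pools the median was -0.02 and 23 of 39 lay below 0. F1 EX pool 1 was the highest of the 8 descendant pools in 13 of the 39, and in 3580 of 11963 over all genes. Mmp14, a membrane-bound collagenase, had 7.02 and 6.96 in F1 EX and 6.62 and 6.71 in F1 SED (0.32, SE 0.142), and collagen gene Col3a1 had 10.15 and 9.89 against 9.80 and 9.72. Of 20 tendon and cartilage genes 13 lay below 0, with a median of -0.12 (-0.15 with centring, -0.08 with quantile normalization). Separated lower were 7 (35%, against 16.6% of all genes), and separated higher were 2 (10.0%, against 13.0%). The corneal and tendon proteoglycan Kera had 6.05 and 6.23 against 6.54 and 6.56 (-0.41, SE 0.129), and the cartilage protein Chad had 7.55 and 7.59 against 8.01 and 7.88 (-0.38, SE 0.143). Both held in every F1 pool, but the tendon median was -0.08 without F1 SED pool 2 and -0.07 without F1 EX pool 1, and -0.12 without both. None of these passed limma's threshold.

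Imprinted genes, which are read from the copy of 1 parent only, were separated in both directions. Of 19 kept genes 4 were separated higher (21.1%, against 13.0% of all genes) and 6 lower (31.6%, against 16.6%), with a median of -0.02 that was -0.03 without both pools that stood apart. The maternally expressed long RNA Meg3 had 4.70 and 4.79 in F1 EX and 5.16 and 5.04 in F1 SED, a difference of -0.36 (SE 0.137). The paternally expressed growth factor Igf2 had 6.60 and 6.41 against 6.23 and 6.26 (0.26, SE 0.124), and the cell cycle inhibitor Cdkn1c had 7.27 and 7.11 against 7.01 and 6.83 (0.27, SE 0.130). Zim1, a zinc finger gene of the Peg3 cluster, had 3.19 and 3.49 against 4.02 and 3.58. DNA methylation genes gave 7 above and 5 below 0, with 1 of 12 separated higher (8.33%, against 13.0% of all genes) and 2 lower (16.7%, against 16.6%). Without F1 EX pool 1, 10 of the 12 lay below 0, and 9 did without both pools. Over all genes 6953 and 7633 of 11963 did. The de novo methyltransferase Dnmt3a had 7.31 and 7.34 against 7.43 and 7.29, a difference of -0.03 (SE 0.130), and the maintenance enzyme Dnmt1 had 5.82 and 5.51 against 5.48 and 5.49.

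Markers of other structures in the muscle were as follows. Of 23 endothelial and vessel genes 15 lay above 0, 6 were separated higher (26.1%, against 13.0% of all genes) and 2 lower (8.7%, against 16.6%), with a median of 0.10 (0.07 with centring, 0.13 with quantile normalization) that was 0.01 without F1 EX pool 1 and 0.00 without F1 SED pool 2, and -0.04 without both. The adhesion molecule Icam2 had 4.76 and 4.80 in F1 EX and 4.22 and 4.51 in F1 SED, a difference of 0.42 (SE 0.134). Neuromuscular junction genes had 11 above and 4 below 0, with a median of 0.04. Below 0 lay 7 of 15 without F1 EX pool 1 (median 0.02) and 10 without both pools (median -0.04). Over all genes the median was -0.03 without F1 EX pool 1 and -0.06 without both, when 7633 of 11963 lay below 0. The acetylcholine receptor subunit Chrnb1 had 7.07 in F1 EX pool 1 and 6.39, 6.31 and 6.32 in the other F1 pools. Krt5, a keratin of skin, had 2.45 and 3.87 in F1 EX, which spanned the F1 SED values of 3.39 and 2.80.

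**Figure D5:**
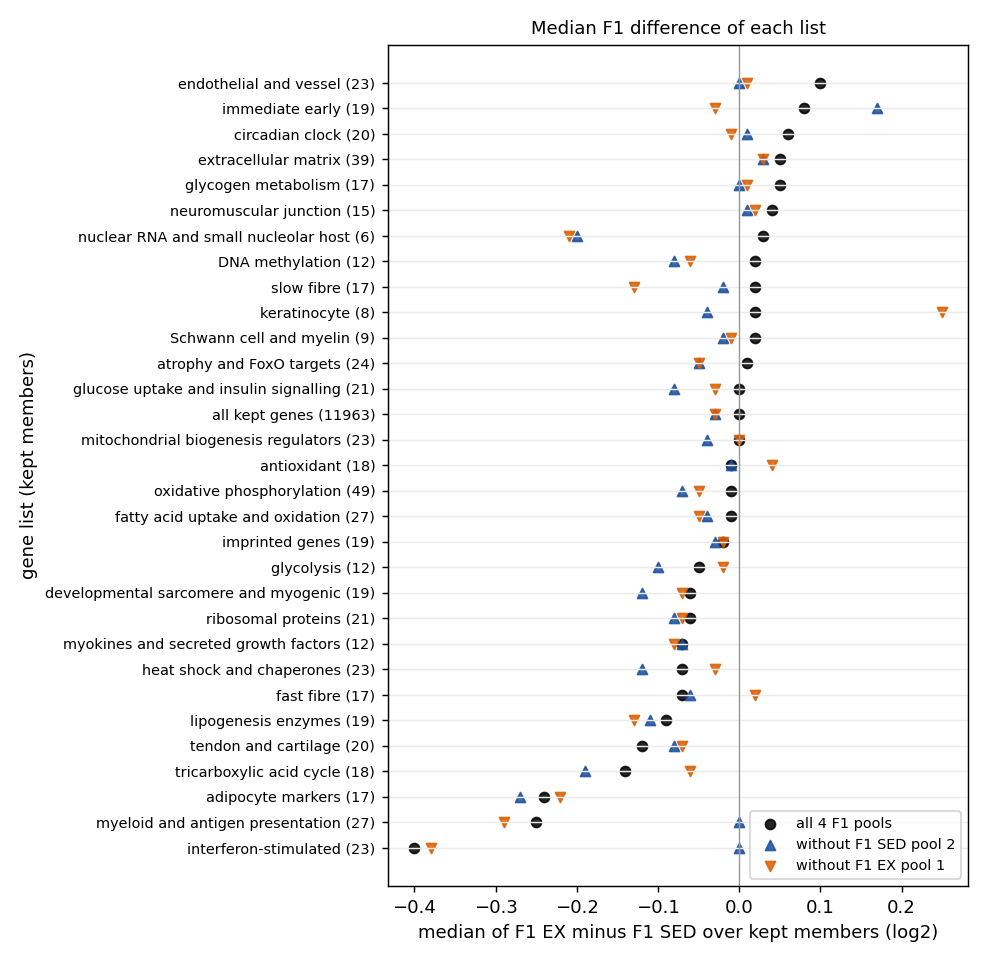
Median difference of F1 EX minus F1 SED on the log2 scale (x axis) over the kept members of each gene list with at least 5 of them (y axis, number in brackets) and over all kept genes. Black circles use all 4 F1 pools, blue triangles leave out F1 SED pool 2 and orange triangles leave out F1 EX pool 1; the interferon and myeloid medians go from -0.40 and -0.25 to 0.00 without F1 SED pool 2, while the adipocyte median goes from -0.24 to -0.27.

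The differences in F1 were set against those between F2 EX and F2 SED by testing the difference of both. limma called 0 of 11963 genes (0.0%), with a smallest adjusted p of 0.919 and 519 genes (4.34%) at an unadjusted p under 0.05. The smallest p belonged to Glrx3, a glutaredoxin that handles iron-sulphur clusters. It had 4.64 and 4.29 in F1 EX and 4.87 and 4.89 in F1 SED, and 5.56 and 5.58 in F2 EX against 4.75 and 4.81 in F2 SED. In F1 the EX pools lay below and in F2 above the SED pools, with a difference of effects of 1.20. Chad showed the same turn, with 8.05 and 8.40 in F2 EX against 7.67 and 7.76 in F2 SED. Cdca7 turned the other way, with 4.79 and 4.77 against 4.29 and 4.10 in F1, and 4.05 and 4.09 against 4.20 and 4.62 in F2. In F2 the EX pools lay both above the SED pools in 25.8% of genes and both below in 14.6%. Of the 1559 genes separated higher in F1, 425 were separated higher and 233 lower in F2. Of the 1980 separated lower in F1, 474 were separated higher and 300 lower in F2. These counts are to be read beside the F2 shares of all genes, and the overlap between generations was not tested.

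Medians of the gene lists in F2 are set beside those in F1. Over all genes the median was 0.00 in F1 and 0.04 in F2, where 7257 of 11963 estimates lay above 0. The adipocyte median was -0.24 in F1 and -0.05 in F2, the tricarboxylic acid cycle median -0.14 and 0.06, and the tendon median -0.12 and 0.24. The F2 tendon value came mainly from 1 pool. The list's mean signal was 6.28 in F2 EX pool 1 and 6.52 in F2 EX pool 2, against 6.16 and 6.25 in F2 SED. The myeloid median was -0.25 in F1 and -0.11 in F2, and the interferon median -0.40 and 0.04, but without F1 SED pool 2 both F1 medians were 0.00, nearer to 0 than in F2. Whether these medians differ between generations was not tested. Without F1 SED pool 1, limma called 5 genes for the difference of effects, with F1 SED pool 2 alone standing for its group: Gm4841 (3.82, adjusted p = 0.00048), Iigp1 (4.84, 0.00101), Irgm1 (2.96, 0.0227), Gm12185 (4.07, 0.0227) and Gm12250 (3.12, 0.0337).

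The genes farthest from the other pools in F1 EX pool 1 were mostly low there. It lay at least 1 below the other 7 descendant pools' median in 88 genes (0.736%) and at least 1 above in 12 (0.1%). Rab2a, a small GTPase of transport between the endoplasmic reticulum and Golgi, had 7.75 in this pool and 9.82 to 10.04 in the other 7. The kinase Jak2, which transmits cytokine and growth hormone signals, had 6.31 against 7.86 to 8.17. The BMP receptor Bmpr1a had 6.85 against 8.28 to 8.48, and Ccdc47, an endoplasmic reticulum calcium protein, had 6.63 against 8.25 to 8.42. The other F1 EX pool had 9.86 for Rab2a, 8.17 for Jak2, 8.34 for Bmpr1a and 8.38 for Ccdc47, among the F1 SED values, so none of these 4 is a difference shared by the F1 EX pools. On the high side, Tpgs2, a subunit of tubulin polyglutamylase, had 6.54 against 5.08 to 5.64, and the mRNA decapping enzyme Dcps had 5.65 against 4.46 to 5.11.

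The array most like F1 EX pool 1 in this respect was the F0 SED pool, of 28-week-old sedentary mice. Among the 88 low genes, F0 SED was the next lowest of the arrays in 75. Over all genes F0 SED was the lowest array, leaving out F1 EX pool 1, in 3919 (32.8%). F0 SED had 8.70 for Rab2a, 6.68 for Jak2, 7.26 for Bmpr1a and 7.56 for Ccdc47, whereas F0 EX had 10.13, 7.95, 8.48 and 8.48. F1 EX pool 1 and F0 SED together were the lowest 2 of 10 arrays in 1641 genes, and the next most frequent pair, F0 EX and F0 SED, in 795. The lower quartile of all probe sets was 2.484 in F1 EX pool 1 and 2.476 in F0 SED, against 2.285 to 2.323 in the other F1 pools. Age and exposure differ between these arrays. The cause of their likeness was not tested.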

How the data were processed

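Messenger RNA of pooled gastrocnemius was measured on Affymetrix arrays. RNA was extracted with a fibrous tissue kit and 5 samples were pooled per array, per the labels' protocols. The authors deposited log2 probe set signals, here used unchanged; the log2 scale was inferred from their range, 0.966 to 14.227. Affymetrix Expression Console is named in the submitters' processing notes. Which version, background correction and normalization it ran with is not given in the sources used here. Precision is limited by the number of arrays, and presence calls were not applied.

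Of 35557 probe sets, GEO's platform annotation gave 1 gene symbol for 21789, several for 1621 and none for 12147, and 21698 matched RefSeq (GRCm38.p6, for names and promoters only). Each gene took its probe set with the highest mean, and genes at or above the 40th percentile were kept. limma 3.58.1 in R 4.3.3 was fitted to the 8 descendant arrays as 4 group means (4 residual and 5.53 prior degrees of freedom), with Benjamini-Hochberg adjustment over 11963 genes, and was checked on simulated data. Spread is thus shared with F2.

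Members, 32 gene lists and tests were chosen with earlier results of these data known. Genes were named by rule: up to 15 per direction with the smallest p among separated genes, 5 members per list with the largest difference plus separated ones, fixed muscle genes (17 of them kept), the genes farthest from the other pools, and 8 per direction for the difference between generations. Members of the interferon, myeloid and MHC families, and F0 values, named outside the rule were chosen after their values were seen.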

Additional observations from a re-analysis of the deposited data

How the results depend on the processing

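The count of genes called between F1 EX and F1 SED was 0 in 17 of 19 alternatives, and that for the difference between generations was 0 in 16 of 18. Leaving out 1 pool at a time gave 0 to 1046 genes for F1 and 0 to 143 for the difference. The 1046 genes (449 higher, 597 lower) and the 143 came without F1 EX pool 2, when pool 1, which stood apart, was alone. The 8 and 5 genes came without F1 SED pool 1. Both fits assume that a lone pool varies like the other groups. Pool numbers did not pair the samples: pool 1 minus pool 2 correlated at -0.11 to 0.06 across genes between groups, and with pool number as a replicate block 0 genes were called for F1 (574 at an unadjusted p under 0.05) and 0 for the difference (479). Without F1 EX pool 1 and F1 SED pool 2, an alternative chosen after seeing the data, the count was 0 with 580 at an unadjusted p under 0.05. Unadjusted counts fell to 281 with the 4 F1 arrays alone and 285 with array weights, which gave both F1 EX pools 0.385 and the others 1.3 to 1.5. Both pools of a group got the same weight, so this setting could not tell F1 EX pool 1 from pool 2.

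For 334 named genes, up to 18 alternative settings each gave 5926 values in total. Named genes passed only without F1 EX pool 2 or without F1 SED pool 1, when 1 pool stood alone for its group. No named gene with an unadjusted p under 0.05 changed sign; 142 values of other genes did, as did 54 of 574 list medians. A list median moved beyond the spread between pools in 61 of 574 cases.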

Other observations

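Genes of liver-secreted plasma proteins varied between pools in both generations, without regard to ancestry in F1. Albumin (Alb) had 7.11 and 6.30 in F1 EX, 6.23 and 7.35 in F1 SED, and 10.04, 7.84, 7.31 and 9.02 in the F2 pools. Ahsg, a serum glycoprotein, had 4.41 and 3.24 in F1 EX, 2.97 and 3.39 in F1 SED, and 6.63, 3.98, 3.56 and 5.25 in F2. The protease inhibitor gene Serpina1c had 5.01 and 3.36 against 2.75 and 4.26 in F1, and transthyretin (Ttr) had 4.92 and 3.53 against 4.45 and 4.57. In F1 the groups overlapped for all 4 of these genes. The muscle kinase Nmrk2, of nicotinamide riboside salvage, had 6.16 and 6.59 in F1 EX and 7.18 and 6.78 in F1 SED, a difference of -0.60 (SE 0.180, limma adjusted p = 0.804), and all 4 F2 pools lay above the F1 pools, at 7.63 to 7.90.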
